A study of Mus musculus with 10 samples.

Results

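A set of 10 genes of the glutathione S-transferase system was followed through the p65 peak lists of a mouse macrophage line: Gstp1, Gstp2, Gstm1, Gsto1, Gstt1, Gstt2, Gstt3, Gsta4, Mgst1 and Mgst2. These were 10 of the 21883 protein-coding genes on chromosomes 1 to 19, X and Y. A peak belonged to a gene when it overlapped the gene body extended by 10 kb on each side by at least 1 bp, and 213 of the 536143 peaks of the 9 lists did so for at least 1 member. Gstp1 shares part of its window with Gstp2, and Gstt1 with Gstt3, so 1 peak can count for both. Several members also lie beside further relatives, such as Gstp3, Gstt4 and the other mu-class genes. The sequences of such paralogues are also alike, and how the authors treated reads that fit more than 1 of them is not given in the sources used here.

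RAW264.7 is a macrophage-like line derived from a tumour that Abelson murine leukemia virus induced in a male mouse, and the cells were of the WT genotype. Cells received the solvent DMSO, DMSO with lipopolysaccharide (LPS, the outer membrane glycolipid of Gram-negative bacteria, which macrophages sense through Tlr4) or LPS with skatole (3-methylindole, a bacterial breakdown product of tryptophan), each for 12 h, with 3 libraries per group. CUT&Tag, in which an antibody directs a transposase to cut and tag the DNA around its target, was run on 200000 cells per library with an antibody that the labels name as p65 and the methods as phosphorylated p65. One further sample without primary antibody was not analysed here, so no peak below was set against a no-antibody background.

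Glutathione S-transferases join the tripeptide glutathione to reactive compounds so that cells can dispose of them. The cytosolic enzymes fall into classes named by Greek letters (pi, mu, omega, theta and alpha among the members), and the microsomal enzymes Mgst1 and Mgst2 sit in membranes, where Mgst2 can also make leukotriene C4. Several of their genes are textbook targets of Nrf2, which acts through the antioxidant response element, while p65 is the NF-κB subunit that LPS sends to the nucleus.

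The lists differed in length and depth before any gene was considered. DMSO libraries held 37551 to 43450 peaks, LPS libraries 55637 to 63498 and LPS+Skatole libraries 78136 to 80153. The genome background, the read pile-up expected anywhere, was 1.09 to 1.40 in DMSO and 2.23 to 2.39 in the other 6 libraries. The lowest summit called stood at 6.44 to 7.34 times background in DMSO and 4.59 to 4.94 times elsewhere. These depths move with the DMSO comparisons below, and their part in them was tested only by the alternatives given. Of 8 macrophage markers, 7 had a peak in all 9 libraries, against 0 of 8 epithelial, fibroblast and chondrocyte markers and 3 of 7 T and B cell markers. Among start sites of all genes, 39.5% to 44.7% had a summit within 1 kb, against 6.47% to 12.5% of the same positions moved by 10 kb.

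The promoters of Gstp1 and Gstp2 are shown because both carried p65 peaks and because they are near copies, those of Gstm1 and Gsto1 because their peaks appeared in every library, and that of Mgst2 because its gene gained most peaks with skatole. Each runs from 250 bases before the RefSeq start site to 50 after it, 5′ to 3′ on the gene's own strand (RefSeq, GRCm38.p6). Capitals mark a match to the AP-1 motif TGANTCA, which reads the same on both strands.
Gstp1, chr19:4037863-4038162, minus strand: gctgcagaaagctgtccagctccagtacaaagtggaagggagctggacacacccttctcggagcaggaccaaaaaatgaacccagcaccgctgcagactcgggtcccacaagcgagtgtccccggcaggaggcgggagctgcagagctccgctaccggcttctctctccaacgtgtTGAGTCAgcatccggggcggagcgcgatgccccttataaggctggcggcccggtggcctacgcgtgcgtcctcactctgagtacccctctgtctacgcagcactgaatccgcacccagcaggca
Gstp2, chr19:4042172-4042471, minus strand: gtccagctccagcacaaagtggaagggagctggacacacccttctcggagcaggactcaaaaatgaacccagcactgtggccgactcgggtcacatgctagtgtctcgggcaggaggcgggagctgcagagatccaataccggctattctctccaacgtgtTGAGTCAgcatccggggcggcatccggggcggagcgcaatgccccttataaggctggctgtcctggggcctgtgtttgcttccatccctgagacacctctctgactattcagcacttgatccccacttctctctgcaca
Gstm1, chr3:108017924-108018223, minus strand: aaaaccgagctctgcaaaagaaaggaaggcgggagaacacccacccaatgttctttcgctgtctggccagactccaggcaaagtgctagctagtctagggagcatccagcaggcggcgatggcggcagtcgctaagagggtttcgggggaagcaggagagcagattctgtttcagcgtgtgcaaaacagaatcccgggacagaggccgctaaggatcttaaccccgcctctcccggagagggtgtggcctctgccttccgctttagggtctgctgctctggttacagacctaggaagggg
Gsto1, chr19:47854723-47855022, plus strand: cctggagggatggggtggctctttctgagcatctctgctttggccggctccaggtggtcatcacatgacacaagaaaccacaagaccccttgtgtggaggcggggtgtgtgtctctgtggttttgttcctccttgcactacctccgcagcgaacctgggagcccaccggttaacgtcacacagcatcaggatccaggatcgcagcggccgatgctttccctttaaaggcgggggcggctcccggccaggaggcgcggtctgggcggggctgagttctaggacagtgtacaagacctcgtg
Mgst2, chr3:51660929-51661228, plus strand: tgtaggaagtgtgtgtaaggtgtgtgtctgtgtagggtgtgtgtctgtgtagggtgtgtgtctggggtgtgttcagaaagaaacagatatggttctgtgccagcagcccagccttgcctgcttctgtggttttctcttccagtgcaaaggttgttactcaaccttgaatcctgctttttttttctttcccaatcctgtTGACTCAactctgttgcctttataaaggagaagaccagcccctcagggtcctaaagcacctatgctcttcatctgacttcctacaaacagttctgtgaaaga

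The Gstp1 and Gstp2 windows were 77.1% identical over their alignment, with an unbroken shared run of 43 bases. RefSeq windows were at hand for 8 of the 10 members, and Gstt2 and Gsta4 had none. The AP-1 motif stood in 3 of the 11 member windows (Gstp1, Gstp2 and Mgst2) and in 6.99% of 21262 windows of all genes. A match to TGACNNNGC, a core form of the antioxidant response element on either strand, was found in 1 member window (Mgst1) and in 13.0% of all windows. Other spellings of that element were not searched. The AP-1 matches of Gstp1 and Gstp2 continue as TGAGTCAgc, which differs from TGACNNNGC only by G in place of C after TGA. The 10-base NF-κB motif, searched by its usual consensus on both strands, matched 0 of the 11 member windows and 4.81% of all windows. A match is only a run of letters in these 300 bases.

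Of the 10 members, 8 had a peak in all 9 libraries, whereas 54.2% of all protein-coding genes did. The exceptions were Gsta4 (chr9:78191966-78209349) and Mgst1 (chr6:138140527-138156755). Gsta4, an alpha-class enzyme that clears the lipid peroxidation product 4-hydroxynonenal, had no peak in any DMSO library, 1, 3 and 0 peaks in LPS, and 1, 2 and 1 when skatole was added. Its 8 regions were each called in a single library. Mgst1, the microsomal enzyme best known for protecting membranes from oxidation, had 1 peak in a single LPS+Skatole library and none in the other 8. Counting the gene body alone, Gstp1, Gstp2 and Gstt1 had a peak in only 7, 5 and 6 libraries. The share of all genes for the gene body alone is not given here. A missing call does not show that no reads lay there, since peaks were called over a local background that varied along the genome.

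**Figure D1:**
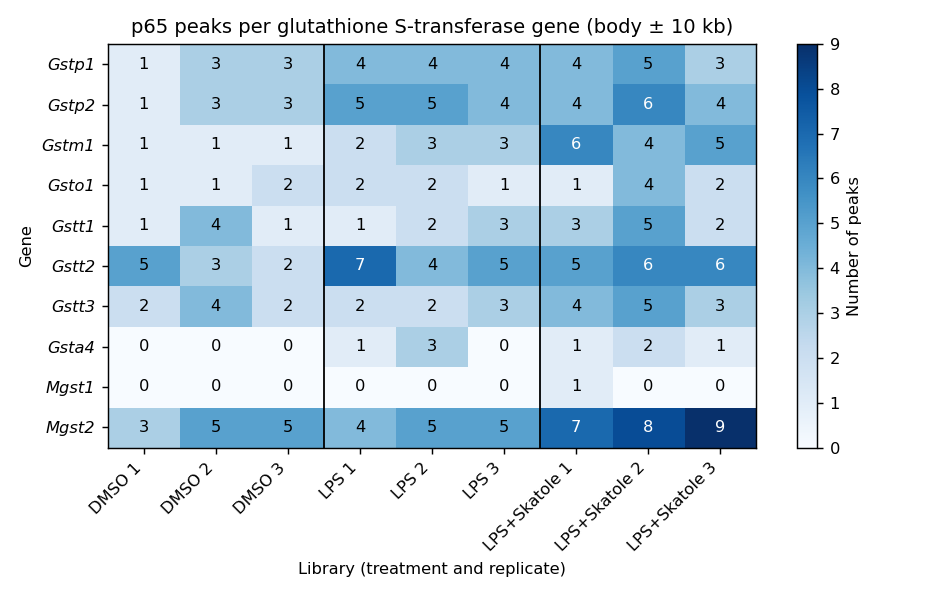
Number of p65 peaks (cell values and colour) overlapping each gene body extended by 10 kb, for the 10 members (rows) in the 9 libraries (columns, 3 per treatment). Gstm1 had 1 peak in every DMSO library and between 4 and 6 in every LPS+Skatole library, and Mgst1 was empty in 8 of 9 libraries.

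Peak numbers were compared first between LPS and DMSO, which asks what LPS changes. Gstp1, a pi-class enzyme that is abundant in many cells, had 1, 3 and 3 peaks in DMSO and 4 in each LPS library. Gstp2, its tandem copy, had 1, 3 and 3 peaks in DMSO and 5, 5 and 4 in LPS. Gstm1, a mu-class enzyme, had 1 peak in each DMSO library and 2, 3 and 3 in LPS. In these 3 genes every LPS library stood above every DMSO library. Every peak counted for Gstp1 also lay in the Gstp2 window, so their calls are not separate. The 4 peaks of Gstp1 in LPS 1 included neighbouring peaks of 35 and 14 reads within about 1 kb. No member was lower in this way, and among all genes 10.9% were higher and 0.324% lower. The 7 other members overlapped between the groups. Mgst2 had 3, 5 and 5 peaks in DMSO and 4, 5 and 5 in LPS, and Gstt2, a theta-class enzyme, had 5, 3 and 2 against 7, 4 and 5. When every list was cut to its strongest 37551 peaks, 0 members were higher, beside 2.43% of all genes, and Gstp1 averaged 0.333 peaks fewer in LPS. With that cut 1 member, Gstt3, was lower, but no share of all genes lower is at hand to set beside it. In DMSO 1 and DMSO 3 the Gstt3 count exceeded that of LPS only through a region at the start site of the neighbouring gene Cabin1. Its peaks ranked 13250 and 17662 in these libraries, and 51164 to 55469 in LPS.

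With skatole added to LPS, 2 members had more peaks without overlap, Gstm1 and Mgst2. Gstm1 had 2, 3 and 3 peaks in LPS and 6, 4 and 5 with skatole. Mgst2 had 4, 5 and 5 in LPS and 7, 8 and 9 with skatole. Its window of 65.8 kb was the longest among the members, against 21.9 to 37.4 kb for the others. The part of window length in its gain was not tested. No member was lower, and 8.11% of all genes were higher and 0.69% lower. Cut to equal length, the lists gave 3 members higher in this comparison (Gstm1, Gstt3 and Mgst2), beside 1.37% of all genes. In LPS+Skatole 3 the Gstt3 call rested on the region at the Cabin1 start, at rank 10331 of that list. The same region was cut from every LPS list, where it ranked 51164 to 55469. Gstp1 and Gstp2 averaged the same number with and without skatole, 4.00 ± 0 against 4.00 ± 1.00 for Gstp1 and 4.67 ± 0.577 against 4.67 ± 1.15 for Gstp2 (SD, n = 3).

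Against DMSO, the LPS+Skatole libraries were higher in 4 members, Gstp2, Gstm1, Gsta4 and Mgst2, and lower in 0, beside 22.7% and 0.155% of all genes. With equal list length 1 of these, Gstm1, was still higher, beside 2.80% of all genes. Gsto1, which reduces dehydroascorbate and methylated arsenic compounds, had 1, 1 and 2 peaks in DMSO, 2, 2 and 1 in LPS and 1, 4 and 2 in LPS+Skatole. Gstt1 had 1, 4 and 1, then 1, 2 and 3, then 3, 5 and 2. Gstt3 had 2, 4 and 2, then 2, 2 and 3, then 4, 5 and 3. All pairs of groups overlapped in Gsto1 and Gstt1.

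An exact two-sided permutation test of 3 libraries against 3 cannot give a p below 0.1, which is what every non-overlapping pair above reached. Over all 3 groups and 280 divisions of the 9 libraries, Gstm1 reached the smallest value this test allows (exact permutation p = 0.00357). Mgst2 followed with an exact permutation p of 0.0357. After Benjamini-Hochberg adjustment over all 21883 genes both had an adjusted exact permutation p of 0.290, and no gene passed 0.05 for any of the measures, although 3083 genes lay under it unadjusted for peak number. Nothing says that the 3 libraries of a group came from separate cultures, so these p-values measure the spread between these libraries, which may be technical.

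Counted once each over all windows, 13, 18 and 15 distinct peaks lay at the members in DMSO, 23, 25 and 22 in LPS and 29, 37 and 31 in LPS+Skatole. The means were 15.3 ± 2.52, 23.3 ± 1.53 and 32.3 ± 4.16 (SD, n = 3). Per 1000 peaks of the list, they were 0.376 ± 0.0350, 0.397 ± 0.0443 and 0.410 ± 0.0560, whose spreads overlapped. With equal list length the means became 14.7 ± 1.53, 14.0 ± 1.73 and 20.7 ± 0.577. The difference between LPS and DMSO thus turned to one of -0.667 peaks, while LPS+Skatole stayed above LPS by 6.67 peaks.

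The rank of each gene's strongest peak within its own list was compared next, as a percentile in which 100 is the strongest peak and 0 stands for no peak. Gsto1, Gstt1, Gstt2 and Gstt3 ranked high in every library, between 81.6 and 98.7. Mgst2 ranked at 77.3, 90.0 and 90.1 in DMSO, 89.8, 90.1 and 93.4 in LPS and 95.4, 95.3 and 94.2 in LPS+Skatole. Gstp2 ranked at 59.7, 72.5 and 47.4 in DMSO, 80.7, 78.3 and 82.7 in LPS and 87.4, 87.8 and 80.2 in LPS+Skatole. LPS was above DMSO without overlap in 3 members (Gstp2, Gstt1 and Gstt3) and below in 0, beside 14.2% and 1.55% of all genes. Gstt1 and Gstt3 took these ranks from the same peaks at the Gstt3 start. Gstp2 took its LPS ranks from the Gstp1 start (78.3 and 82.7) and from a region nearer to Gstp3 (80.7). At the Gstp2 start itself the LPS peaks ranked at 11.1, 58.7 and 62.5, against 72.5 and 47.4 in DMSO 2 and DMSO 3. LPS+Skatole was above LPS in 2 members (Gsta4 and Mgst2) and below in 0, beside 11.4% and 2.02%. LPS+Skatole was above DMSO in 4 members (Gstp1, Gstp2, Gsta4 and Mgst2) and below in 0, beside 24.3% and 0.946%. Here Gstp1 and Gstp2 took their ranks from the same shared peaks, so these are not separate calls. With equal list length 0 members were higher in each of these comparisons, beside 5.09%, 3.73% and 5.54% of all genes.

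The height of a gene's tallest summit, given as its read count over the library's genome background, ordered the groups differently. Between LPS and DMSO, 2 members were lower without overlap and 0 were higher, beside 16.8% lower and 3.24% higher among all genes. They were Gsto1, at 29.4, 40.0 and 33.9 times background in DMSO and 25.3, 21.6 and 24.7 in LPS, and Gstt2, at 40.4, 47.2 and 43.4 against 34.0, 32.8 and 36.7. A gene's tallest summit need not be at 1 site in all libraries, and that of Gstt2 came from 2 sites about 2 kb apart, which are taken separately below. With skatole added to LPS, 6 members were higher and 0 lower, beside 16.3% and 1.28% of all genes. They were Gstp1, Gstp2, Gstm1, Gstt2, Gsta4 and Mgst2. With equal list length 5 remained, without Gsta4, and the count was 4 to 8 under every alternative run, the smaller numbers with windows of 3 kb or the gene body alone. No share of all genes is set beside these alternative counts, so they cannot be read against the background. Gstp1 and Gstp2 took their value from the same shared peaks in LPS+Skatole, so these do not count as separate sites. The Gstt2 call was not found at either of its summits alone, and the Gsta4 peaks lay at a different site in each library. Between LPS+Skatole and DMSO, 3 members were higher by this count (Gstp1, Gstp2 and Gsta4) and 0 lower, beside 9.58% and 8.37%. Gstp1 and Gstp2 share the region that gave it. Gsta4 was set to 0 in DMSO for want of a peak. Its 7.27 in LPS+Skatole 1 lay below the lowest summit called in DMSO 1 (7.34), so its levels in those libraries could not be told apart. Its 8.40 and 11.3 in LPS+Skatole 2 and LPS+Skatole 3 lay above that value. The Gsta4 call was lost with equal list length.

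**Figure D2:**
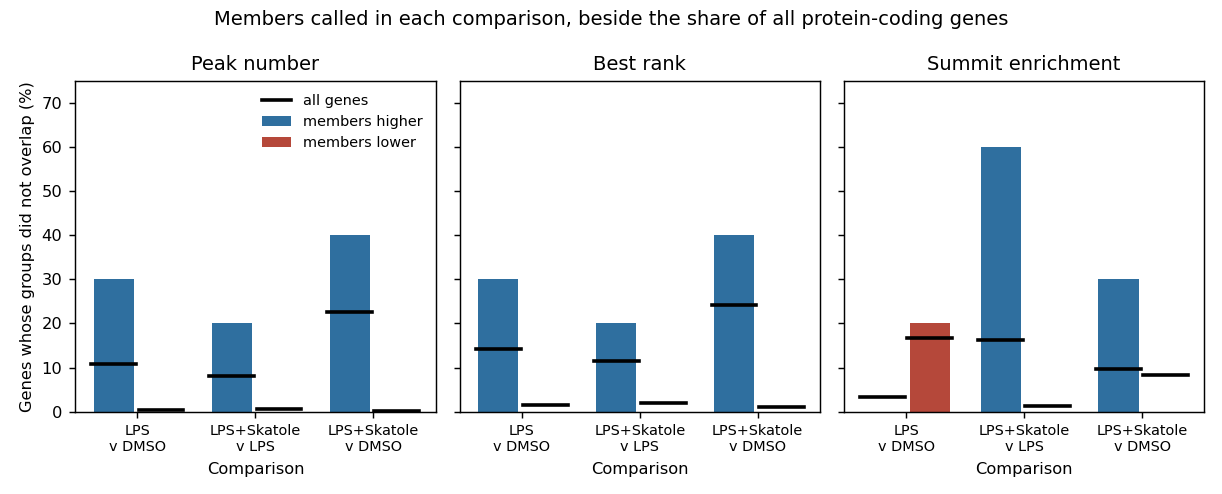
Share of the 10 members whose 3 libraries of one treatment all lay above (blue bars) or below (red bars) the 3 of the other, in percent, for peak number, best rank and summit enrichment, with black lines at the share of all 21883 protein-coding genes. The widest gap is for summit enrichment between LPS+Skatole and LPS, with 6 of 10 members higher beside 16.3% of all genes.

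Merging the 9 lists gave 71 regions in the member windows out of 235070 in the genome. Of these, 43 were called in a single library and 7 in all 9. The share in 1 library was 60.6% at the members and 71.3% over all regions, and the share in all 9 was 9.86% and 5.88%. Between LPS and DMSO 2 member regions were gained (3 libraries of one group and 0 of the other) and 0 lost, beside 0.984% and 0.0408% of all regions. Between LPS+Skatole and LPS 3 were gained and 0 lost, beside 0.507% and 0.112%. Between LPS+Skatole and DMSO 5 were gained and 0 lost, beside 1.85% and 0.034%. These counts depended on how regions were joined. Gained regions between LPS+Skatole and LPS numbered 0 when peaks had to cover 50% of each other, and 1 with summits within 250 bp, with equal list length or with summits of at least 8 times background. The shares of all regions under these rules were 0.317%, 0.384%, 0.511% and 0.886%. Gained regions against DMSO numbered 1 under each of the first 3 of these rules, beside 0.906%, 1.27% and 1.80% of all regions. They numbered 4 under the last, whose share is not given here.

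The pi-class locus, with Gstp1 at chr19:4035411-4037912 and Gstp2 at chr19:4040288-4042221, held the largest ratio between LPS+Skatole and LPS among the 10 of 71 member regions called in all 6 libraries of that comparison. It lies at chr19:4045125-4047120 (mm10, as all positions here), outside any annotated gene, with its median summit 3979 bp upstream of the Gstp2 start site and on the side of Gstp3. No peak was called there in DMSO 1. Its tallest summit held 15 and 33 reads in the other two DMSO libraries, 35, 40 and 42 in LPS and 109, 109 and 88 in LPS+Skatole. Every LPS+Skatole library thus held over 2 times the reads of any LPS library, while the local background, the pile-up around the site, was 14.1 to 15.2 in LPS and 14.8 to 15.6 in LPS+Skatole. Relative to genome background the summit stood at 10.7 and 24.3 in DMSO 2 and DMSO 3, the latter above every LPS library. It stood at 15.3, 18.0 and 17.9 in LPS and 46.6, 48.2 and 36.7 in LPS+Skatole. The ratio of LPS+Skatole to LPS means was 2.57 (exact permutation p = 0.1, the smallest possible). Of 19799 such regions in the genome, 75 had a higher ratio, and the median ratio was 1.21. With equal list length the region was called in all 3 LPS+Skatole libraries and in 0 LPS libraries.

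The start sites of the pi-class pair showed no such difference. At the Gstp1 start (chr19:4036789-4038594) a peak was called in 1 DMSO library, all 3 LPS libraries and all 3 LPS+Skatole libraries. Its summit counts were 12 reads in DMSO 2, 18, 35 and 42 in LPS and 26, 45 and 37 in LPS+Skatole, and the last groups overlapped in enrichment (ratio 1.12, exact permutation p = 0.7). At the Gstp2 start (chr19:4041380-4043176) peaks were called in 2, 3 and 2 libraries with 13 to 29 reads. Summits within 1 kb of the Gstp1 start thus appeared in 7 of 9 libraries, as at the Gstp2 start. A further region, chr19:4051913-4053335 and nearer to Gstp3, had no peak in DMSO, one in each LPS library (39, 20 and 34 reads) and one in 2 of 3 LPS+Skatole libraries (20 and 39 reads).

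**Figure D3:**
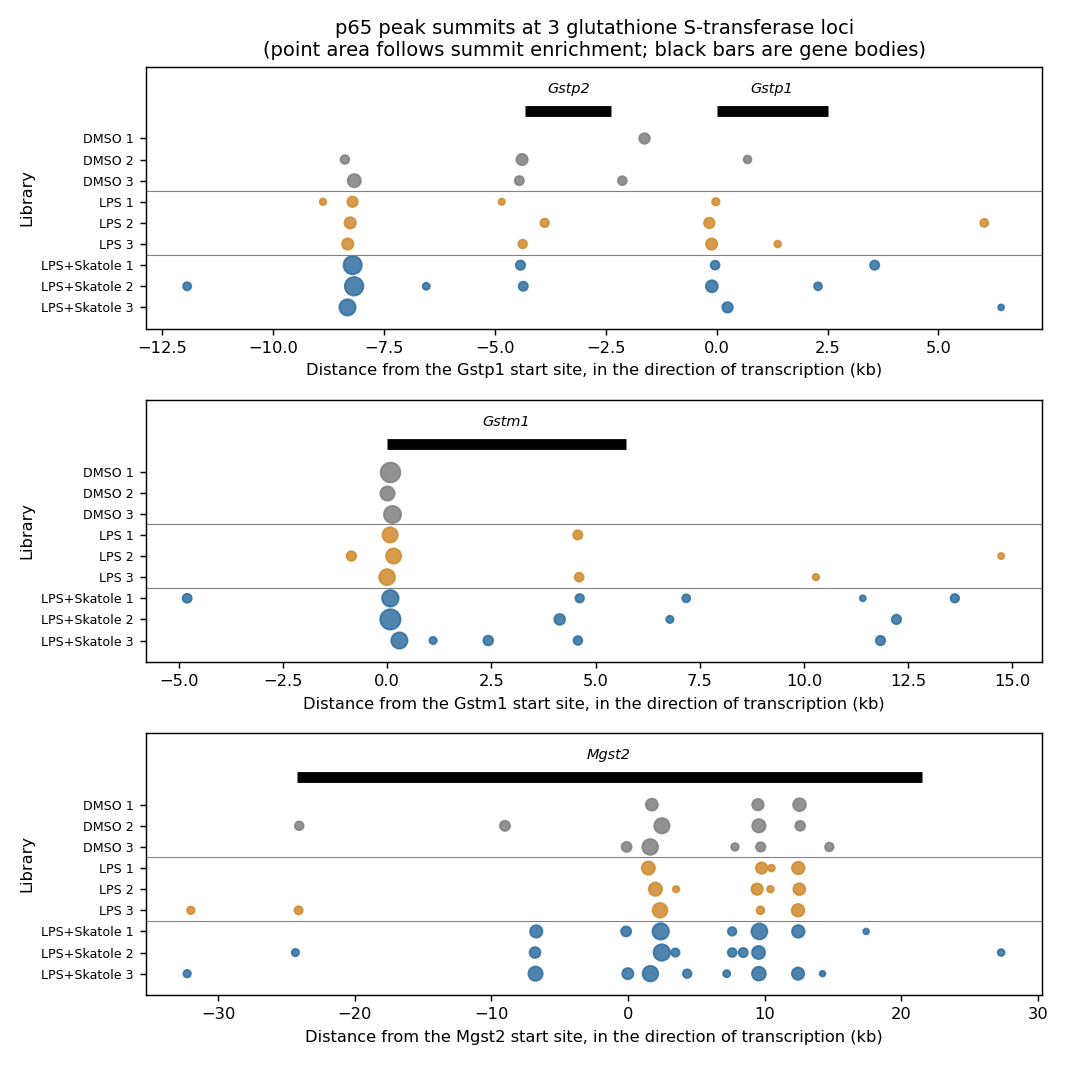
Position of every p65 peak summit (points) in each of the 9 libraries (rows) at the Gstp1 and Gstp2 locus, at Gstm1 and at Mgst2, in kb from the start site of the named gene, with point area following summit enrichment and black bars for gene bodies. The large points about 8 kb upstream of Gstp1 in the 3 LPS+Skatole rows are the region that held 88 to 109 reads.

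Gstm1 (chr3:108012250-108017973) carried 1 strong region in every library, at its own start site (chr3:108016445-108018141), with a median summit 75 bp inside the gene. The summit held 59, 40 and 56 reads in DMSO, 75, 72 and 83 in LPS and 90, 130 and 88 in LPS+Skatole. In multiples of background these were 54.2, 28.6 and 41.2, then 32.7, 32.3 and 35.4, then 38.5, 57.5 and 36.7. LPS+Skatole stood above LPS without overlap by a ratio of 1.32, which 7134 of the 19799 regions exceeded, and DMSO overlapped both. By the deposited fold over local background LPS+Skatole and LPS overlapped (ratio 1.27, exact permutation p = 0.4). Its local background was 7.94 to 16.9, several times the genome value. The extra Gstm1 peaks were weaker. One region inside the gene (chr3:108013083-108014575) was called in 0, 2 and 3 libraries of DMSO, LPS and LPS+Skatole with 24 to 37 reads, and one 6112 bp from the far end of the gene (chr3:108005325-108006758) in 0, 0 and 3 with 12, 28 and 30 reads. The latter was not gained with equal list length, −log10 p of at least 10 or summits of at least 8 times background. Nor was it gained under either other rule for joining regions.

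Mgst2 spans 45764 bp (chr3:51636912-51682675), and 2 of its regions were called in all 9 libraries. The one nearest the start (chr3:51659953-51664861, median summit 2008 bp into the transcript) held 22, 46 and 47 reads in DMSO, 56, 55 and 71 in LPS and 88, 86 and 81 in LPS+Skatole. Its enrichment in LPS+Skatole was 1.38 times that in LPS, without overlap, and 5952 of the 19799 regions had a higher ratio. Its tallest summits were spread over 994 bp. The other (chr3:51669955-51672250, 9583 bp into the gene from that start) held 20, 35 and 17 reads, then 42, 41 and 20, then 83, 54 and 64. Its ratio of 1.90 between LPS+Skatole and LPS was exceeded by 900 of the 19799 regions. Against DMSO both overlapped in enrichment, with ratios of 1.25 and 1.54, while by the deposited fold LPS+Skatole stood above DMSO without overlap at both (1.52 and 1.87). A neighbouring site at chr3:51672629-51674048 showed no such step, with 51, 44 and 52 reads in LPS and 52 and 51 in the 2 LPS+Skatole libraries that had it.

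A pair of Mgst2 regions was present in every LPS+Skatole library and in no LPS library when peaks were joined by 1 bp. One (chr3:51654262-51655005) lay inside the annotated gene at -6770 bp from the start site in the promoter set, hence upstream of it, and had 50, 37 and 68 reads in LPS+Skatole and no call in the other 6 libraries. Its summits fell within 89 bp of each other, and it was gained also with summits joined within 250 bp, but not when peaks had to cover 50% of each other or with equal list length. The other (chr3:51668309-51669731) had 24, 27 and 17 reads in LPS+Skatole and 11 in 1 DMSO library, with summits spread over 1211 bp, and it was not gained under any of those 3 rules. Summits within 1 kb of the Mgst2 start were rare, in 1, 0 and 2 libraries of the groups.

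Gsto1 (chr19:47854973-47864790) had its strongest region across its start site (chr19:47853588-47856230) in all 9 libraries. Its summit held 32, 56 and 46 reads in DMSO, 58, 48 and 58 in LPS and 74, 87 and 60 in LPS+Skatole. The enrichment in LPS was 0.693 times that in DMSO without overlap, with summits spread over 967 bp. The median LPS to DMSO ratio of the 14394 regions called in all 6 libraries was 0.842, and 11662 of them had a higher ratio than this one. LPS+Skatole against LPS overlapped (ratio 1.33, exact permutation p = 0.2), and so did LPS+Skatole against DMSO (ratio 0.922, exact permutation p = 0.7). By the deposited fold over local background LPS and DMSO overlapped (ratio 0.853, exact permutation p = 0.3), and LPS+Skatole stood above LPS without overlap (ratio 1.33). The theta-class gene Gstt3 (chr10:75774117-75781422) also had a region at its start in every library (chr10:75780616-75782147), with 28 to 101 reads and overlap in all 3 comparisons (ratios 0.924, 1.07 and 0.984). Gstt1 (chr10:75783813-75798584), which shares that region, had a summit within 1 kb of its own start in 4 libraries.

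Gstt2 (chr10:75831842-75837419) carried a broad region across one end of the gene (chr10:75834868-75838280), which held 2 main summits. Sites were separated after seeing the data, where neighbouring summits lay over 250 bp apart. The summit inside the gene (75835364 to 75835595) was called in all 9 libraries, with 41, 39 and 59 reads in DMSO, 69, 65 and 86 in LPS and 120, 66 and 135 in LPS+Skatole. In multiples of background it stood at 37.6, 27.9 and 43.4, then 30.1, 29.2 and 36.7, then 51.3, 29.2 and 56.4, and all pairs of groups overlapped (ratio of LPS+Skatole to LPS 1.43, exact permutation p = 0.4). The summit just beyond the gene (75837438 to 75837548) stood at 40.4, 47.2 and 37.5 in DMSO and 34.0, 32.8 and 31.6 in LPS, lower without overlap by a ratio of 0.786. In LPS+Skatole it was a summit of its own in 2 libraries, at 38.5 and 23.0, and lay within a longer peak with its summit in the gene in LPS+Skatole 1. Farther from the summit in the gene, chr10:75829612-75830957 was called in no DMSO library and in all 6 others with 14 to 34 reads, and chr10:75827660-75828979 in 0, 2 and 3 libraries. A further region in the Gstt3 window (chr10:75763987-75765778) lay at the start site of Cabin1, a calcineurin inhibitor, and its local background ran from 3.98 to 34.7 between libraries, with 6.43, 4.17 and 3.15 fold over it in DMSO, 1.81 to 2.03 in LPS and 2.44 to 11.4 in LPS+Skatole, the first and last groups overlapping. By summit enrichment all 3 comparisons overlapped there (ratios 0.593, 1.29 and 0.766). Its tallest summits were spread over 993 bp, at 75765286 in LPS+Skatole 3 and at 75764293 to 75764450 in the other 8 libraries. Values for LPS+Skatole at Cabin1, by fold or enrichment, thus mix 2 sites.

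**Figure D4:**
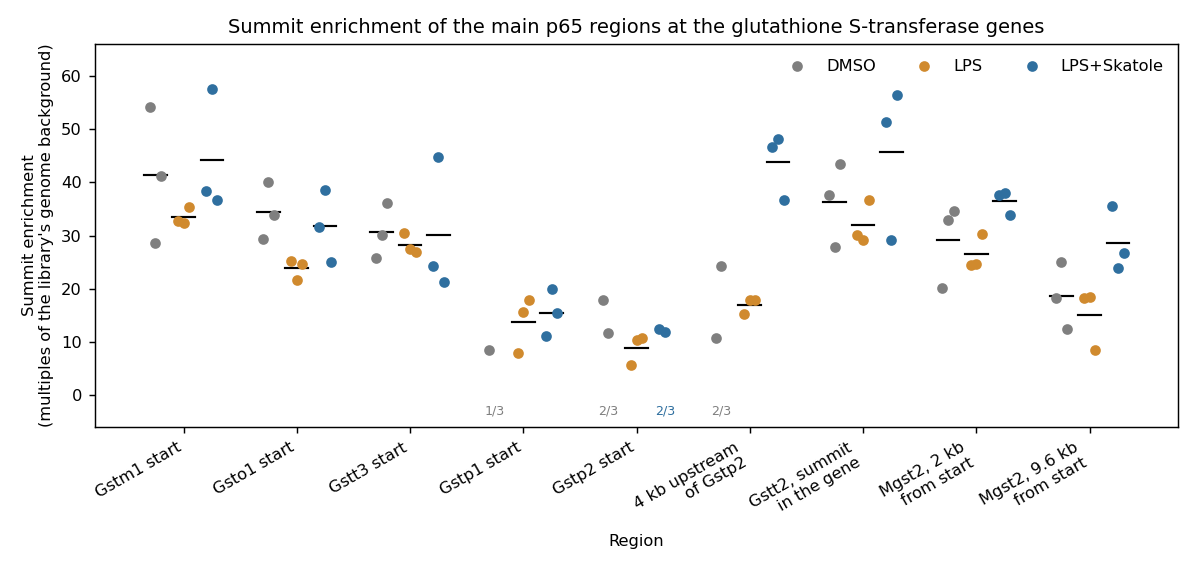
Tallest summit of 9 member regions (for Gstt2, the summit in the gene) in multiples of the library's genome background, 1 point per library with a call, coloured by treatment, with black bars at the mean of 3 libraries and a fraction (libraries called of 3) where fewer had a peak. The region 4 kb upstream of Gstp2 shows LPS+Skatole points at 36.7 to 48.2 above LPS points at 15.3 to 18.0, while those at the Gstt3 start overlap in all groups.

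Taking only regions called in all 6 libraries of a comparison, a measure chosen after seeing the data, 0 of 7 member regions were higher and 2 lower in LPS than in DMSO, beside 4.07% and 23.7% of all such regions. Between LPS+Skatole and LPS, 5 of 10 were higher and 0 lower, beside 24.2% and 1.55%. Among the 5 higher and the 2 lower is the Gstt2 region, whose summit in the gene overlapped in both comparisons. Between LPS+Skatole and DMSO, 0 of 7 were higher and 0 lower, beside 13.1% and 11.5%. By the deposited fold over local background the calls differ. Of the regions lower in LPS, that at Gsto1 then overlaps with DMSO, and the Cabin1 region is lower. For Gstt2 the fold was taken at the summit in the gene, whereas the enrichment of several libraries came from the summit beyond it. At the summit beyond the gene the fold was 6.44, 7.63 and 6.15 in DMSO and 5.89, 5.71 and 5.52 in LPS, also lower without overlap. The region at Gstm1 is no longer above LPS with skatole, nor is Gstt2 at the summit in the gene, while those at Gsto1 and Cabin1 are. The 2 Mgst2 regions are higher in LPS+Skatole than in DMSO. Background shares were not computed for the fold, so these calls, and those by fold given above, cannot be read against all regions.

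The other genes of the pathway were counted by peak number in the same way, against the same shares of all genes (LPS against DMSO 10.9% higher and 0.324% lower, LPS+Skatole against LPS 8.11% higher and 0.69% lower), which also stand behind the NF-κB and Nrf2 lists that follow. Of 20 further genes of the transferase families and their relatives, 3 were higher in LPS than in DMSO (Gstm4, Gstp3 and Ptges), 1 was higher in LPS+Skatole than in LPS (Gsta2) and 0 were lower in either. Ptges, which makes prostaglandin E2, had 2 peaks in each DMSO library, 9, 6 and 9 in LPS and 4, 7 and 10 in LPS+Skatole. Of 20 genes for making and recycling glutathione, 5 were higher in LPS (Gss, Gsr, Slc7a11, Slc3a2 and Lap3), and with skatole 4 were above LPS (Gclc, Slc7a11, Ggt1 and Anpep) and 1 was below it (Slc3a2). Slc7a11, the cystine importer that feeds glutathione synthesis, had 1, 3 and 7 peaks in DMSO, 11, 10 and 13 in LPS and 20, 24 and 24 in LPS+Skatole. Gclc, the catalytic subunit of the rate-limiting step, had 3, 5 and 4, then 4, 4 and 3, then 6, 7 and 10. Of 19 enzymes and exporters that use glutathione, 2 were higher in LPS (Glo1 and Abcc1), 3 were higher with skatole than in LPS (Glrx, Glo1 and Esd) and 1 was lower (Gpx1). These lists share their control libraries with the members.

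For scale, 6 of 12 textbook NF-κB targets were higher in LPS than in DMSO, among them Il1b (2, 3 and 2 peaks against 7, 5 and 5) and Nfkb1 (10, 9 and 12 against 27, 24 and 26). With skatole 1 of the 12 was above LPS (Cxcl10) and 1 below it (Nfkb2). Of 6 Nrf2 regulators, 1 was higher in LPS than in DMSO and 0 lower, and with skatole 0 were above LPS and 1 below, in both cases Keap1. Keap1, the protein that holds Nrf2 in check, had 6, 6 and 5 peaks in DMSO, 9, 10 and 9 in LPS and 7, 7 and 4 in LPS+Skatole.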

How the data were processed

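CUT&Tag peak lists of 9 RAW264.7 libraries were analysed. Per the labels, the submitters' processing notes name fastp 0.20.1, HISAT2 2.1.0, StringTie 2.0 and the mm10 build. The peak caller and the treatment of reads that map to several places are not given in the sources used here. The authors deposited 1 list per library, with a score, a fold ratio over local background, the p-value as −log10 p and the q-value as −log10 q for each peak. Summit counts and backgrounds were recovered from the deposited fold and −log10 p (at least 99.993% came out whole within 0.05), and enrichment is that count over the library's lowest background. Depth in reads is unknown.

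Genes were those of RefSeq GRCm38.p6. The groups were compared by exact permutation tests with Benjamini-Hochberg adjustment and by counting genes whose groups did not overlap (Python 3.11.15, NumPy 2.4.6, pandas 2.3.3, SciPy 1.17.1, Biopython 1.88). The procedures were tested on simulated data. All 10 members were counted in each comparison, and those called without overlap on the full lists with 10 kb windows were named. Regions were named when called most often, gained or lost, or called in every library of a group. Members and gene lists were chosen with earlier results of these data known. No file columns of other samples were used. Alternatives were equal list length, −log10 p of at least 10, summits of at least 8 times background, windows of 3 kb or none, summit position, region joining and leaving out each library.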

Additional observations from a re-analysis of the deposited data

How the results depend on the processing

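Most values held their direction: of the counts and differences recomputed under the alternatives, 181 stayed within their spread or within 1.5 times the count given above, 40 moved and 1 reversed. Cutting all lists to 37551 peaks moved most. Between LPS and DMSO it left 0 members higher by peak number (2.43% of all genes) and 0 by best rank (5.09%). It turned the difference in distinct peaks to -0.667 and that of Gstp1 to -0.333. It left 1 region gained and 1 lost (at the Cabin1 start), beside 1.28% and 0.218% of all regions. Between LPS+Skatole and LPS it left 0 members higher by best rank (3.73% of all genes) and 1 region gained (0.511% of all regions). Between LPS+Skatole and DMSO it left 1 member higher by peak number (2.80% of all genes) and 0 by best rank (5.54%). It also left a difference of 6.00 distinct peaks and 1 region gained (1.80% of all regions) there. A −log10 p of at least 10 gave 0 members higher by peak number between LPS and DMSO, beside 9.87% of all genes, and 1 lower, Gstt3. Between LPS+Skatole and LPS it gave 4 higher, beside 6.13% of all genes. The differences in distinct peaks were 1.67 (LPS minus DMSO) and 13.3 (LPS+Skatole minus DMSO). It also gave 1 region lost (at the Cabin1 start) between LPS and DMSO, beside 0.0643% of all regions. Summits of at least 8 times background gave 1 and 2 members higher by peak number against DMSO (LPS, LPS+Skatole), beside 4.21% and 10.8% of all genes. They gave 1 member higher by best rank between LPS+Skatole and LPS, beside 9.99%, and differences of 2.33 and 11.3 distinct peaks. With them 1 region was gained in LPS against DMSO and 1 in LPS+Skatole against LPS, beside 1.32% and 0.886% of all regions. Windows of 3 kb gave 1 member higher by peak number between LPS and DMSO, beside 8.21% of all genes. They gave 1 by enrichment between LPS+Skatole and DMSO, beside 8.84%, and differences of 4.33 and 12.0 peaks. The gene body alone gave 0 and 1 members higher by peak number (LPS against DMSO, LPS+Skatole against LPS), beside 7.17% and 5.47% of all genes. It gave differences of 2.67, 4.33 and 7.00 peaks (LPS minus DMSO, LPS+Skatole minus LPS, LPS+Skatole minus DMSO). For Gstp2 it turned the peak number to -0.333 and the best rank to -17.0 against DMSO, and the enrichment to -3.02 against LPS and -5.66 against DMSO in LPS+Skatole. Joining regions only at 50% of each other gave 0 regions gained between LPS+Skatole and LPS and 1 between LPS+Skatole and DMSO, beside 0.317% and 0.906% of all regions. Joining summits within 250 bp gave 1 and 1, beside 0.384% and 1.27%. The cause of these moves was not tested.

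Leaving out single libraries gave 3 to 5 members higher by best rank between LPS and DMSO, 2 to 5 between LPS+Skatole and LPS, 0 to 1 by enrichment between LPS and DMSO, and 2 to 5 regions gained between LPS and DMSO. The 5 by best rank came without LPS 1, beside 21.2% of all genes, and without LPS+Skatole 3, beside 17.8%. The 1 by enrichment came without LPS 3, beside 4.73% of all genes. The 5 regions came without LPS 2, beside 1.93% of all regions. The replicate numbers did not pair the libraries (correlation of deviations from -0.0174 to 0.0120 for the same number and from -0.0163 to 0.0218 for others). With the replicate number as a block, 5 members were higher by best rank between LPS and DMSO, beside 22.7% of all genes. With the summit inside the window, all counts and differences kept within these limits. The lowest called summit lay at 6.44 to 7.34 times background in DMSO and 4.59 to 4.94 times elsewhere. Its part in the DMSO comparisons was not tested apart from these alternatives.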
